A study of Mus musculus with 12 samples.

Results

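The RNAs described here are 10 long noncoding RNAs that are held in the nucleus or that serve as the precursor of smaller RNAs: Malat1, Neat1, Miat, Meg3, Kcnq1ot1, Peg13, Rmst, Mir124a-1hg, Snhg11 and Gas5. They were chosen by name, with earlier results of these data known, so the counts below describe them and do not test an independent list. Of the 10 names, 9 were found among the gene names of the count table and Peg13 was not analysed here. A pair of records carries the name Meg3, so the 9 names stand for 10 of 40912 gene IDs. The lesser Meg3 record (ENSMUSG00000098724, listed as protein coding) held 2 reads in all and was not tested, which left 9 member IDs among 15905 tested ones.

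The libraries came from spinal cord of mice at postnatal day 21. The mice carried a transgene that puts an EGFP tag on the ribosomal protein Rpl10a, either Tg(Snap25-EGFP/Rpl10a)JD362Jdd, driven by sequences of Snap25, a gene of neurons at large, or the Chat transgene, driven by sequences of a gene of cholinergic neurons such as motor neurons. All animals therefore carried a tag, and no untagged cord was compared. Each line gave 3 libraries of RNA pulled down with the tagged ribosomes (TRAP_Chat and TRAP_Snap25) and 3 of RNA set aside before the pulldown, the input (PreIP_Chat and PreIP_Snap25). Same-numbered input and pulldown libraries of a line share a suffix in their descriptions, whose meaning is not stated. The suffix of replicate 2 of the Chat line is also that of replicate 1 of the Snap25 line. The labels do not say which libraries came from separate animals, so the spread among libraries of a group may be technical. The p-values and SE of the main fit rest on that spread pooled over all 4 groups. Groups outside a comparison therefore enter its SE.

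Most of these RNAs are made in the nucleus, stay there and are not read by ribosomes. Malat1 gathers in nuclear speckles, Neat1 is the scaffold of paraspeckles, and Kcnq1ot1 silences neighbouring genes on the paternal chromosome from which it is transcribed. Others are spliced and cut to give small RNAs: Gas5 and Snhg11 hold small nucleolar RNAs (snoRNAs) in their introns, and Rmst, Meg3 and Mir124a-1hg hold microRNAs. A ribosome pulldown is known to carry over some RNA that was never bound by the tagged ribosomes, and RNAs of this kind are often used to judge how much.

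Mature microRNA sequences are shown for 2 of the host RNAs, Rmst and Meg3, because they are what those hosts are processed to. The sequences and positions are RefSeq's on GRCm38.p6, and the capitals mark the seed, bases 2 to 8. Rmst holds miR-135a-5p (chr10:92072141-92072163, minus strand) and miR-1251-5p (chr10:92137190-92137210, minus strand), and Meg3 holds miR-770-5p (chr12:109563710-109563731, plus strand) and miR-1906 (chr12:109544588-109544609, plus strand). No seed is shared between these 4. The model of Mir124a-1hg holds Mir124a-1 and Mir3078.
miR-135a-5p: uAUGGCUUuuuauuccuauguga
miR-1251-5p: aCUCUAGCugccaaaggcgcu
miR-770-5p: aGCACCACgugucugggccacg
miR-1906: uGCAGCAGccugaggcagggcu

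The 5′ end of an RNA bears on whether and how ribosomes take it up, and RNAs of the translation machinery typically start with a C followed by a run of pyrimidines. RefSeq promoters were matched for 6 of the members. The first 20 bases downstream of each annotated start are given, with capitals for the opening run of pyrimidines where it starts with C and goes on for at least 4 more. That pattern was present at 2.51% of 32851 RefSeq starts. Among the members it was found at the second of 2 Gas5 starts and at the Miat start.
Gas5, second start: CTTTCggagctgtgcggcat
Gas5, first start: gagctcgacagcccggagcc
Miat: CCCTTTgtgaggcgcgggag
Malat1: caggcattcaggcagcgaga
Snhg11: actcacgcactcagcctgct
Kcnq1ot1: gaggaacagttgcctcagca
Meg3, first start: agcacagaagacgaagagct
Meg3, second start: ggaaagccaggttgtctacc
Which of these starts are used in the cord, and whether this feature bears on the pulldown levels, was not tested. Of 16 other snoRNA host genes with a RefSeq start, 2 (Snhg7 and Snhg8) had it. Of this set Snhg1, Snhg8 and Snhg10 were not found in the count table, so it is not the set of 16 hosts tested below.

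The promoters of Gas5 and Meg3 are printed because 2 of 4 motifs searched were matched in these and in no other member promoter. They are the 300 bases from 250 before to 50 after the start, at chr1:161034916-161035215 and chr12:109540746-109541045, both on the plus strand. Capitals mark TGACGTCA, the binding letters of cAMP-response factors, the letters TATATA, and in Gas5 also the opening pyrimidine run. Both strands were searched, and these motifs do not overlap each other. TGACGTCA was in 1.79% and TATATA in 5.67% of all RefSeq promoters of that length. The other motifs were TATAAA (13.6% of promoters), which overlapped TATATA in Meg3, and CCAAT (37.4%), in Meg3 and Kcnq1ot1.
Gas5: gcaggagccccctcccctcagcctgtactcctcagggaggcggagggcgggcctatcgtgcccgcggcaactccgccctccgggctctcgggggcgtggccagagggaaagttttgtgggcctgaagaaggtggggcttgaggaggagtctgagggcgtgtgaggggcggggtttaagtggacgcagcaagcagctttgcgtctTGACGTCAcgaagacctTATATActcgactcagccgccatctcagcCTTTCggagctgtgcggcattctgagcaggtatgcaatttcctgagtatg
Meg3: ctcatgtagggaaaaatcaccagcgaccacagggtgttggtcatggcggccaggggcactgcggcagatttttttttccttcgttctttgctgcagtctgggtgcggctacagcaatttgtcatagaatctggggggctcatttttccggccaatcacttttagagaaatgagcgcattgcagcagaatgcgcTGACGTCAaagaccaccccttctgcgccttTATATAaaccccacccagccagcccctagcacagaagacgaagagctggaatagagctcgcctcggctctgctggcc
TGACGTCA began 46 bases before the Gas5 start and 57 bases before the Meg3 start, and TATATA began 29 and 27 bases before them. A match of letters is a description and not a measured binding site.

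Total counts ran from 10149346 to 20521699 per library, so that 3 reads were worth 0.146 to 0.296 counts per 1000000 (CPM). Chat stood at 159 ± 46.3 CPM in TRAP_Chat against 22.2 ± 7.24 in its input, and Snap25 at 15680 ± 781 in TRAP_Snap25 against 9474 ± 953 (SD, n = 3). Oligodendrocyte markers (11 genes) summed to 16657 to 23088 CPM in the inputs and to 1778 to 6053 in the pulldowns, and no marker of that list was at 0. Some libraries stood apart. TRAP_Chat replicate 1 held 6.67% mitochondrial ribosomal RNA, against 0.209% to 0.680% in the other pulldowns. It and TRAP_Snap25 replicate 3 had the most oligodendrocyte RNA among the pulldowns. The inputs PreIP_Snap25 replicates 2 and 3 held the highest and lowest levels of most members. Results are given with and without these libraries.

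In the inputs the members differed widely in level. Per kilobase of exon (GENCODE M21 gene models, matched by ID for all but Rmst), Malat1 was by far the most abundant, at 704 ± 110 CPM per kb in PreIP_Chat and 1340 ± 590 in PreIP_Snap25 (SD, n = 3). Snhg11 and Gas5 came next on this scale, at 27.6 ± 8.64 and 25.3 ± 8.0 CPM per kb in PreIP_Chat, and did not differ beyond their spread. Miat (8.06 ± 1.52) and Mir124a-1hg (7.79 ± 2.10) formed a further pair, followed by Neat1 at 3.67 ± 0.53. Kcnq1ot1 (0.146 ± 0.026) and Meg3 (0.100 ± 0.029) were lowest as counted, at long gene models of 93.1 and 18.1 kb. The lesser Meg3 record had no GENCODE M21 model, so whether the Meg3 records overlap, and whether this lowered the count, was not tested.

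The comparison of TRAP_Chat with PreIP_Chat sets RNA held by tagged ribosomes against RNA of the whole cord. Of the 9 tested members 8 fell in TRAP_Chat and 0 rose (edgeR, adjusted p under 0.05), where 14.3% of all tested genes fell and 12.6% rose. The same 8 members were lower in every pulldown than in any input, and 0 were higher, where this held for 26.1% and 21.8% of tested genes. Mir124a-1hg fell most, with a log2 fold change of -3.72 ± 0.54 (SE of the fit over all 12 libraries, edgeR adjusted p = 0.000209). Snhg11 fell least among the 8 (-1.92 ± 0.54, edgeR adjusted p = 0.0154). Gas5 did not pass and was the 1 member higher at an unadjusted p under 0.05. With DESeq2 and limma voom 0 members rose, while Gas5 passed as higher with total counts, with no filter, with the replicate number as a block and without TRAP_Chat replicate 3. The median log2 fold change of the members was -2.96, beside -0.06 over all tested genes. In a bulk sample, fewer cells of a type and less RNA per cell cannot be told apart.

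The Snap25 pulldown was set against its own input in the same way. Here 7 of the 9 members fell and 0 rose (edgeR, adjusted p under 0.05; 0 also at an unadjusted p under 0.05, with DESeq2 and with limma voom), where 12.7% of all tested genes fell and 9.69% rose. For 6 of them the libraries did not overlap, where 21.4% of tested genes were lower and 16.6% higher without overlap. Mir124a-1hg again fell most, with a log2 fold change of -5.08 ± 0.59 (SE of the fit over all 12 libraries, edgeR adjusted p = 6.88e-05). Kcnq1ot1 and Gas5 did not pass. The median log2 fold change of the members was -3.35, beside -0.00 over all genes. With the inputs PreIP_Snap25 replicates 2 and 3 both left out, 5 members fell, where 668 of 17568 tested genes fell and 245 rose, and the calls lost were those of Meg3 and Rmst.

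**Figure D1:**
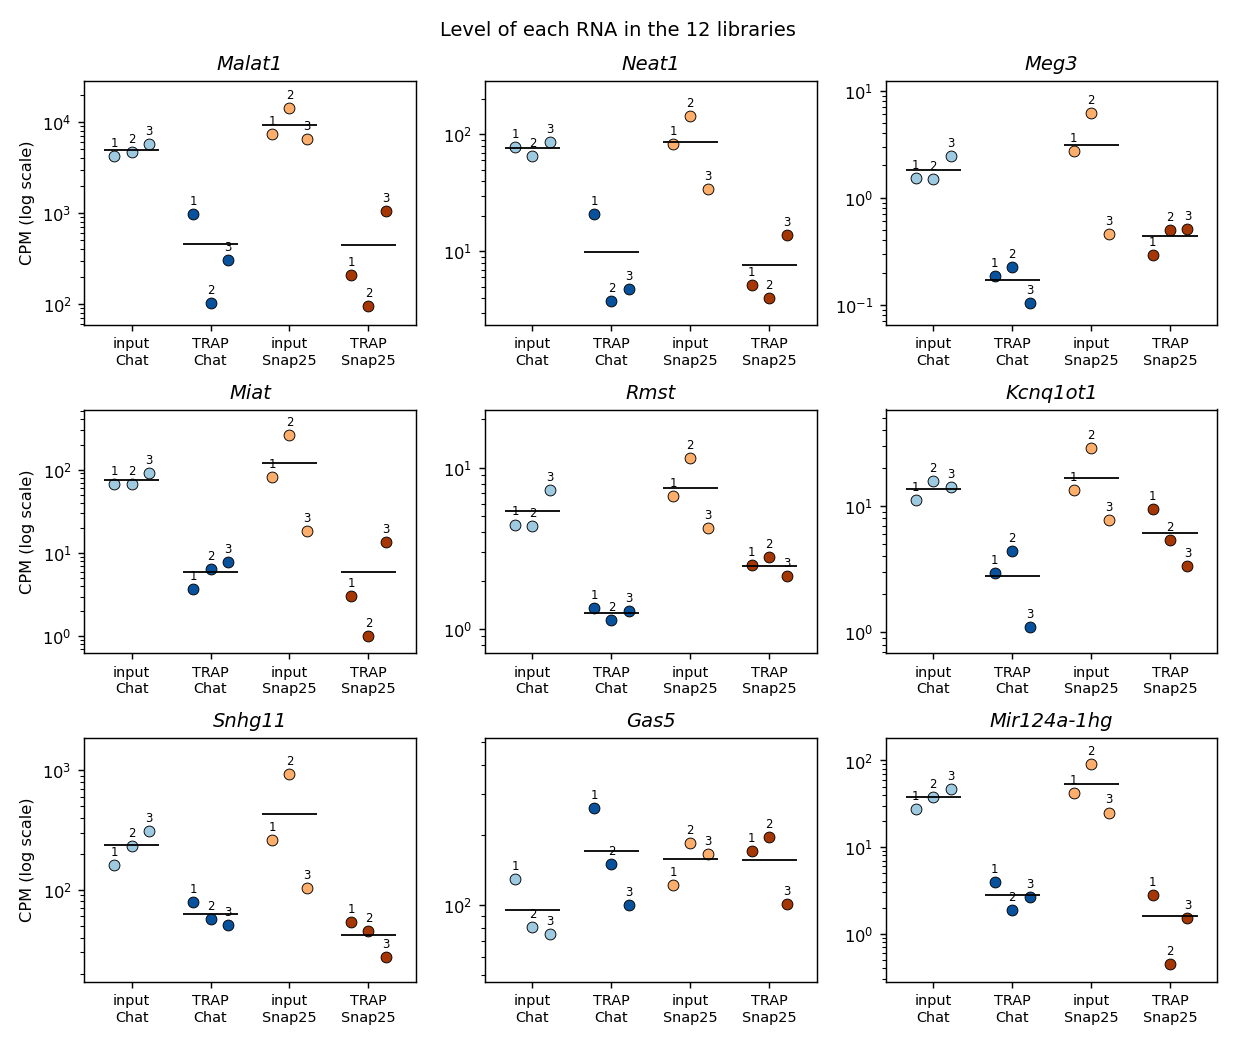
Level of each tested member in CPM (TMM-scaled, log axis) in the 12 libraries, one panel per gene, with points numbered by replicate and a bar at the mean of each group of 3. Malat1, Neat1, Miat, Snhg11, Rmst and Mir124a-1hg lie lower in every pulldown than in every input of the same line, and Gas5 does not.

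Malat1 is the speckle RNA. It stood at 4274, 4712 and 5767 CPM in PreIP_Chat replicates 1, 2 and 3 and at 981, 102 and 305 CPM in TRAP_Chat. The Snap25 line had it at 7422, 14092 and 6559 CPM in the inputs and at 209, 94.9 and 1049 CPM in the pulldowns. No pulldown reached any input, yet the highest pulldown was 9.63 times the lowest in the Chat line and 11.1 times in the Snap25 line. As a share of the mean input this was 19.9%, 2.07% and 6.19% in the Chat line and 2.23%, 1.01% and 11.2% in the Snap25 line. Malat1 fell in both, with log2 fold changes of -3.41 ± 0.79 (SE, edgeR adjusted p = 0.00505) and -4.38 ± 0.83 (adjusted p = 0.00189).

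Neat1, the paraspeckle scaffold, had 77.7, 64.8 and 86.5 CPM in PreIP_Chat and 20.9, 3.77 and 4.73 in TRAP_Chat. Its levels were 82.0, 143 and 34.4 CPM in PreIP_Snap25 and 5.21, 4.02 and 13.7 in TRAP_Snap25. TRAP_Chat replicate 1 and TRAP_Snap25 replicate 3 were again the highest pulldowns, and no pulldown reached an input. Neat1 fell in both lines, with log2 fold changes of -2.96 ± 0.62 and -3.52 ± 0.64 (SE, edgeR adjusted p = 0.00269 and 0.00147).

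Miat is an RNA of neurons that forms its own nuclear domains. Its levels were 66.9, 66.6 and 91.1 CPM in PreIP_Chat and 3.70, 6.42 and 7.80 in TRAP_Chat, where replicate 1, the highest for Malat1 and Neat1, was the lowest. Among the Snap25 libraries the inputs had 82.2, 264 and 18.2 CPM and the pulldowns 3.08, 1.0 and 13.6, so the lowest input and the highest pulldown came close without overlapping. Miat fell in both lines, with log2 fold changes of -3.64 ± 0.82 and -4.42 ± 0.85 (SE, edgeR adjusted p = 0.00409 and 0.00209).

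Malat1 and Neat1 were highest in the pulldowns with the most oligodendrocyte RNA. The 11 oligodendrocyte markers summed to 6053 CPM in TRAP_Chat replicate 1, 2242 in replicate 2 and 3238 in replicate 3, and to 2298, 1778 and 5379 CPM in TRAP_Snap25. The 8 precursor markers summed to 212, 73.9 and 121 CPM and to 97.3, 63.0 and 232 CPM. In both of these lists every marker had reads in every pulldown. TRAP_Chat replicate 1 and TRAP_Snap25 replicate 3 were also the highest pulldowns for summed astrocyte markers (2249 and 2276 CPM) and microglia markers (38.0 and 31.1 CPM). Vessel and meninges markers were highest in the former (162 CPM) and lowest in the latter (44.0 CPM). Markers of neurons in general were lowest of the line in the former (25258 CPM) and highest in the latter (31917 CPM). The part of any of these lists in the levels of Malat1 and Neat1 was not tested. Without TRAP_Chat replicate 1 and TRAP_Snap25 replicate 3 together, Malat1 had log2 fold changes of -4.598 ± 0.523 (Chat line) and -5.95 ± 0.56 (Snap25 line). Neat1 then had -4.16 ± 0.48 and -4.24 ± 0.49. The omitted libraries were chosen after the data were seen and held the highest Malat1 and Neat1 of their groups. Larger falls of both RNAs without them follow from that choice. The members that fell were then 8 and 7, as with all libraries. Of 16362 genes tested in that fit, 2808 fell and 2228 rose in the Chat line, and 2759 fell and 1907 rose in the Snap25 line. With all libraries 2268 and 2017 of 15905 fell.

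**Figure D2:**
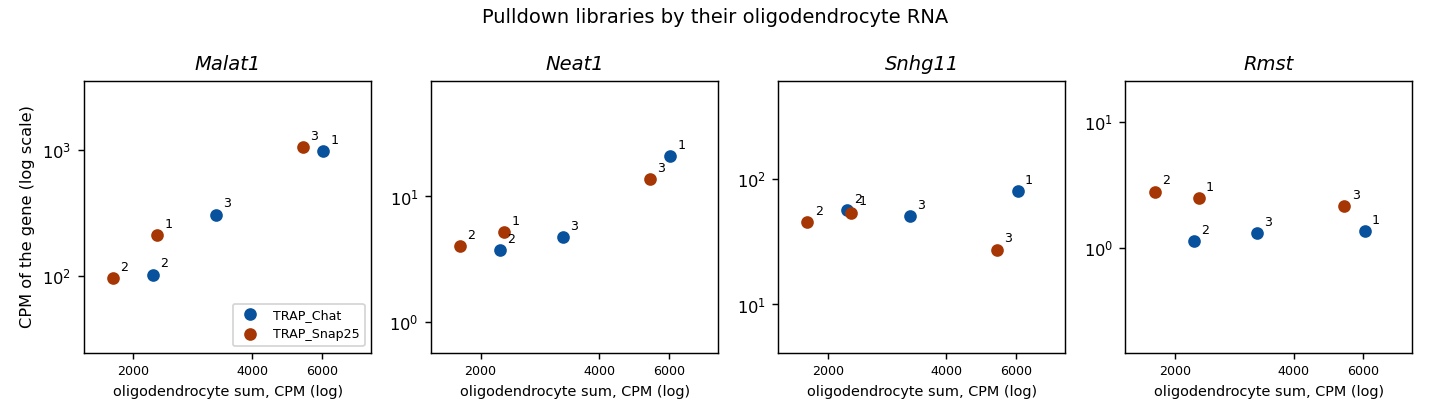
Level of Malat1, Neat1, Snhg11 and Rmst in CPM (log axis) in the 6 pulldown libraries against the summed CPM of 11 oligodendrocyte markers (log axis), with points numbered by replicate. Malat1 and Neat1 are highest in TRAP_Chat replicate 1 and TRAP_Snap25 replicate 3, while Snhg11 is lowest in the latter and Rmst is level within each line.

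The tested genes whose log2 CPM followed Malat1 most closely over the 12 libraries were Bcas1 (Pearson r = 0.983), a gene of newly formed oligodendrocytes, Mtmr10 (0.980), a myotubularin-related protein, and Adamts4 (0.980), a secreted protease of oligodendrocytes. Those closest to Meg3 were Rbm33 (0.952), Ogt (0.948), an enzyme that attaches sugar to nuclear proteins, and Vegfa (0.937), and those closest to Gas5 were Snhg20 (0.899), Rps19 (0.895), a ribosomal protein, and Dnajc19 (0.871). These were the best 3 of 10156 or 10157 named genes whose mean reached 5 CPM, and the 12 points share the step from input to pulldown, so these values are a description. The Malat1 list held 1 gene (Bcas1) from the precursor markers.

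Of the imprinted members, Meg3, made from the maternal chromosome, was counted in few reads. The inputs held 25, 27 and 46 reads in PreIP_Chat and 50, 95 and 7 in PreIP_Snap25, and the pulldowns 3, 3 and 2 reads in TRAP_Chat and 4, 9 and 5 in TRAP_Snap25. In CPM the inputs had 1.53, 1.49 and 2.43 and 2.75, 6.14 and 0.456, and the pulldowns 0.185, 0.226 and 0.104 and 0.294, 0.502 and 0.508. PreIP_Snap25 replicate 3 lay inside the range of its pulldowns. Over summed reads, Meg3 in TRAP_Chat stood at 8.96% of its input (8 against 98 reads, exact 95% interval 3.76% to 18.3%) and in TRAP_Snap25 at 14.0% (18 against 152 reads, 8.09% to 22.9%), intervals that cover counting error only. In the fit it fell in both lines, with log2 fold changes of -3.37 ± 0.90 and -2.82 ± 0.84 (SE, edgeR adjusted p = 0.0112 and 0.0241). The call in the Snap25 line was lost without PreIP_Snap25 replicate 1 (adjusted p = 0.0577) or 2 (0.199), and without TRAP_Snap25 replicate 1 (0.0715) or 2 (0.0558). It was also lost with the replicate block (0.0987).

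Kcnq1ot1 is antisense to Kcnq1, and the strand setting of the counting is not given in the sources used here. Kcnq1 was counted at 46 reads in all libraries together. Without the strand setting, that count cannot show how many Kcnq1 reads were taken for Kcnq1ot1, which was not tested. Kcnq1ot1 had 11.04, 15.8 and 14.0 CPM in PreIP_Chat and 2.96, 4.38 and 1.09 in TRAP_Chat, with no overlap, and fell by 2.29 ± 0.55 on the log2 scale (SE, edgeR adjusted p = 0.0062). The Snap25 libraries had 13.3, 29.0 and 7.75 CPM in the inputs and 9.47, 5.41 and 3.35 in the pulldowns. There the groups overlapped and the log2 fold change of -1.45 ± 0.53 did not pass (edgeR adjusted p = 0.0583). It passed without PreIP_Snap25 replicate 3 (adjusted p = 0.0307) or TRAP_Snap25 replicate 1 (0.0365), and with the replicate block (0.0489).

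Rmst, a host of microRNAs and a regulator of neuron formation, varied least among the pulldowns. It had 4.45, 4.37 and 7.29 CPM in PreIP_Chat and 1.36, 1.13 and 1.3 in TRAP_Chat, and 6.70, 11.5 and 4.23 CPM in PreIP_Snap25 against 2.50, 2.79 and 2.13 in TRAP_Snap25. The pulldowns stood at 21.1% to 25.3% of the mean input in the Chat line and at 28.5% to 37.3% in the Snap25 line. Rmst fell in both lines, with log2 fold changes of -2.08 ± 0.49 and -1.59 ± 0.48 (SE, edgeR adjusted p = 0.00552 and 0.0249). The Snap25 call was lost without PreIP_Snap25 replicate 1 (adjusted p = 0.0561) or 2 (0.168) and without TRAP_Snap25 replicate 1 (0.054) or 3 (0.0501).

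Mir124a-1hg, one of the hosts of the neuronal microRNA miR-124, fell furthest in both lines. It had 27.3, 37.6 and 47.4 CPM in PreIP_Chat and 3.95, 1.89 and 2.65 in TRAP_Chat. The Snap25 line had 42.5, 91.0 and 25.1 CPM in the inputs and 2.79, 0.446 and 1.52 in the pulldowns, the last 3 from 38, 8 and 15 reads. Every pulldown stood at 10.6% of the mean input or less. Among all tested genes 1.78% in the Chat line and 0.905% in the Snap25 line had a lower log2 fold change.

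The 2 snoRNA hosts went different ways. Snhg11, a host RNA of neurons that the table lists as protein coding, had 162, 234 and 309 CPM in PreIP_Chat and 79.7, 56.6 and 50.6 in TRAP_Chat. The Snap25 line had 261, 929 and 104 CPM in the inputs and 53.8, 45.2 and 27.3 in the pulldowns. No pulldown reached an input in either line. It fell in both, with log2 fold changes of -1.92 ± 0.54 and -3.35 ± 0.57 (SE, edgeR adjusted p = 0.0154 and 0.00102). In the Chat line the call was lost without PreIP_Chat replicate 3 (adjusted p = 0.0596), TRAP_Chat replicate 2 (0.0565) or replicate 3 (0.0591), and in the Snap25 line the log2 fold change was -2.12 without PreIP_Snap25 replicate 2.

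Gas5, whose spliced RNA reaches the cytoplasm and ribosomes, did not fall. It had 130, 80.8 and 74.9 CPM in PreIP_Chat and 260, 149 and 100 in TRAP_Chat, where the lowest pulldown lay below the highest input. Its level was 121, 184 and 165 CPM in PreIP_Snap25 and 170, 195 and 101 in TRAP_Snap25, and these groups overlapped fully. Log2 fold changes were 0.84 ± 0.34 in the Chat line (SE, edgeR adjusted p = 0.0772) and -0.01 ± 0.34 in the Snap25 line (edgeR adjusted p = 0.986), the latter sign changing with the scaling. Between same-numbered libraries Gas5 was higher in the pulldown in 3 of 3 Chat pairs. In the Snap25 line it was higher in replicates 1 and 2 and lower in replicate 3 (101 against 165 CPM). The share of all tested genes with such patterns was not taken. With the replicate number as a block Gas5 passed in the Chat line (log2 fold change 0.77 ± 0.25, edgeR adjusted p = 0.0315), where 1986 of 15905 tested genes rose. Without TRAP_Chat replicate 3 Gas5 passed as higher in the Chat line (log2 fold change 1.10, adjusted p = 0.0307), and without replicate 1, the highest pulldown, the log2 fold change was 0.39. The Gas5 model overlaps Zbtb37 on the opposite strand, which held 667 reads in all.

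**Figure D3:**
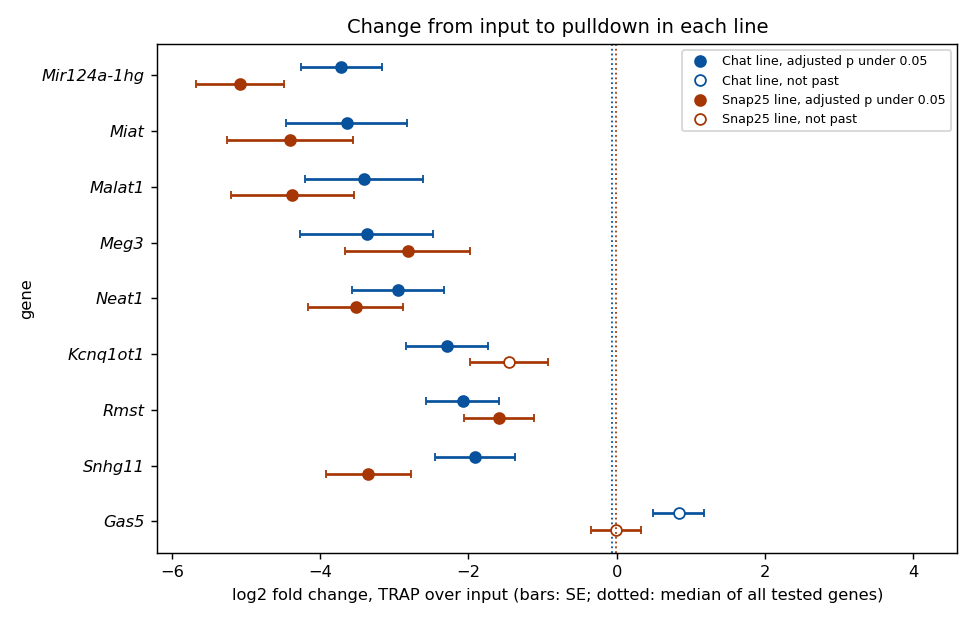
Log2 fold change from input to pulldown of each tested member (x axis) in the Chat and Snap25 lines, with 3 libraries per group. Bars are the SE of the fit over all 12 libraries. Filled points have an edgeR adjusted p under 0.05, and dotted lines lie at the median of all tested genes. Mir124a-1hg lies furthest left in both lines and Gas5 is the only member near or right of the dotted medians.

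The comparison of TRAP_Chat with TRAP_Snap25 sets the ribosomes of cholinergic neurons against those of neurons at large. No member passed in either direction (edgeR: 0 of 9 at an adjusted p under 0.05, where 3.97% of tested genes were higher and 2.77% lower, and 0 of 9 at an unadjusted p under 0.05). The log2 fold changes ran from -1.33 ± 0.92 for Meg3 to 0.87 ± 0.56 for Mir124a-1hg, and that of Malat1 was 0.04 ± 0.72 (SE). Rmst was lower in all 3 TRAP_Chat libraries than in any TRAP_Snap25 library, with a log2 fold change of -0.97 ± 0.49 (edgeR adjusted p = 0.263), and so was Meg3, as were 9.47% of all tested genes, with 10.3% higher. The count was also 0 with DESeq2 and limma voom.

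The size of the change from input to pulldown was compared between the lines as an interaction. Again 0 of 9 members passed (edgeR), where 0.604% of tested genes were higher and 0.440% lower, and 0 had an unadjusted p under 0.05. The largest differences were those of Snhg11 (1.44 ± 0.74, edgeR adjusted p = 0.487) and Mir124a-1hg (1.37 ± 0.74, adjusted p = 0.516), both with a smaller fall in the Chat line. Standard errors of 0.48 to 1.14 on the log2 scale limit what could be told apart here. With no filter on low counts Snhg11 passed (1.44, adjusted p = 0.018).

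Between the inputs of the lines 0 genes passed by edgeR (0 higher and 0 lower, 134 at an unadjusted p under 0.05, and 1 with DESeq2). All 9 members had a negative log2 fold change of PreIP_Chat against PreIP_Snap25, from -0.18 ± 0.57 for Neat1 to -0.93 ± 0.73 for Malat1. Malat1 was lower in each PreIP_Chat library than in each PreIP_Snap25 library, as were 3.85% of all tested genes, with 4.19% higher. Gas5 was the 1 member at an unadjusted p under 0.05, and DESeq2 called 0 members. Without PreIP_Snap25 replicate 2 the sign turned positive for 6 of them, Neat1, Meg3, Miat, Kcnq1ot1, Snhg11 and Mir124a-1hg.

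Among the Snap25 inputs these RNAs differed between replicates more than most genes did. For 8 of the 9 members, all but Gas5, PreIP_Snap25 replicate 2 was the highest of the 3 and replicate 3 the lowest. The log2 ratio of replicate 2 to replicate 3 (CPM + 0.5) was taken after these levels were seen. The choice of pair favours high ranks of the members, which are therefore a description. That ratio was 3.82 for Miat, the highest of all 15905 tested genes, 3.16 for Snhg11, 2.80 for Meg3 and 2.04 for Neat1. It was 1.84 for both Kcnq1ot1 and Mir124a-1hg, 1.34 for Rmst, 1.10 for Malat1 and 0.15 for Gas5, and the median of all tested genes was -0.01. With counts over total reads and no TMM, Miat stood at 73.6, 226 and 15.8 CPM in the 3 inputs, in the same order. In PreIP_Chat the SD of log2 CPM over replicates ran from 0.21 to 0.47 for the members, beside a median of 0.27 over all genes, whereas in PreIP_Snap25 it reached 1.93 for Miat, beside 0.35.

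**Figure D4:**
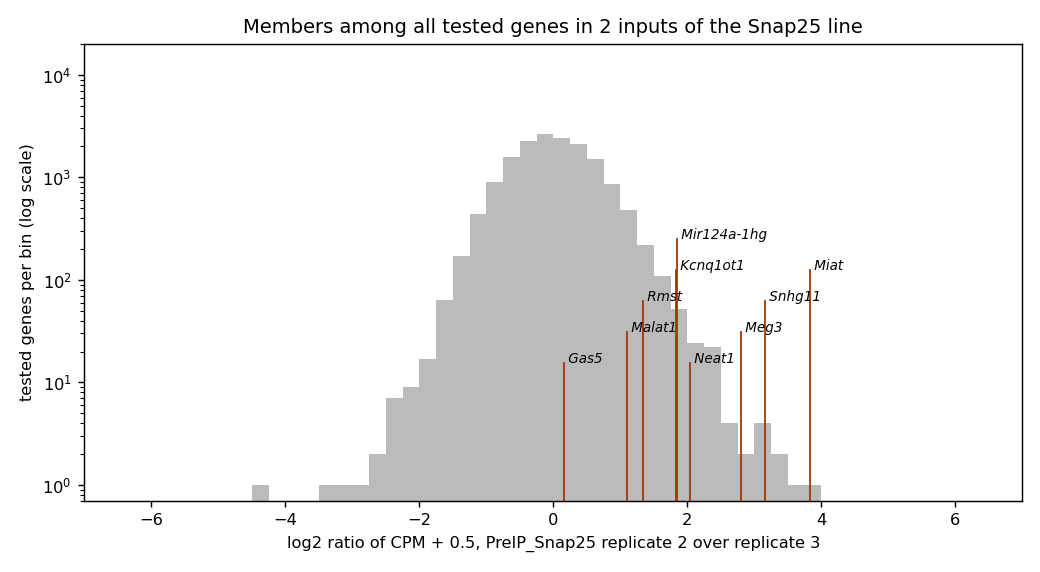
Number of tested genes (log axis) by the log2 ratio of CPM + 0.5 in PreIP_Snap25 replicate 2 over replicate 3, with a line at each member, whose heights carry no value. The pair of replicates was chosen after the members' levels were seen. Miat lies at the right end of all genes at 3.82 and Gas5 near the centre at 0.15.

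Noncoding classes moved with the members in these inputs. Over 453 lincRNA genes the median of that ratio was 0.32, over 328 antisense genes 0.40 and over 256 processed transcripts 0.47, against -0.03 over 14248 protein-coding genes. The ratio exceeded 4-fold for 3.53% of lincRNA genes and 0.175% of protein-coding genes. Mitochondrial ribosomal RNA made up 25.3%, 40.7% and 33.0% of reads in replicates 1, 2 and 3, and markers of Schwann cells and sensory neurons (7 genes) summed to 193 CPM in replicate 2 and up to 891 in the others. Scn10a and Trpv1, of the sensory neurons, were at 0 in 2 of the 3 inputs. Markers of neurons in general summed to 17434 to 19239 CPM in the 3 libraries. The part of these in the spread was not tested.

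The same counts were taken over lincRNA genes as a class. Of 453 tested lincRNA genes, 6 of them members, 14.8% fell and 11.9% rose in the Chat line (edgeR), beside 14.7% and 13.2% of protein-coding genes. The Snap25 line had 13.9% of lincRNA genes lower and 3.97% higher, beside 13.0% and 10.5% of protein-coding genes. The median log2 fold change of lincRNA genes was -0.28 and -0.35 in the lines. The members' medians of -2.96 and -3.35 stand beside these as a description. A fall of this size was not particular to the members. Median log2 fold changes of protein-coding markers were -2.38 and -2.65 for oligodendrocytes, -2.48 and -2.91 for their precursors and -2.49 and -3.21 for microglia. For neurons in general they were 0.51 and 0.65. Of the oligodendrocyte and precursor markers 100% fell in both lines, beside 14.3% and 12.7% of all tested genes.

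**Figure D5:**
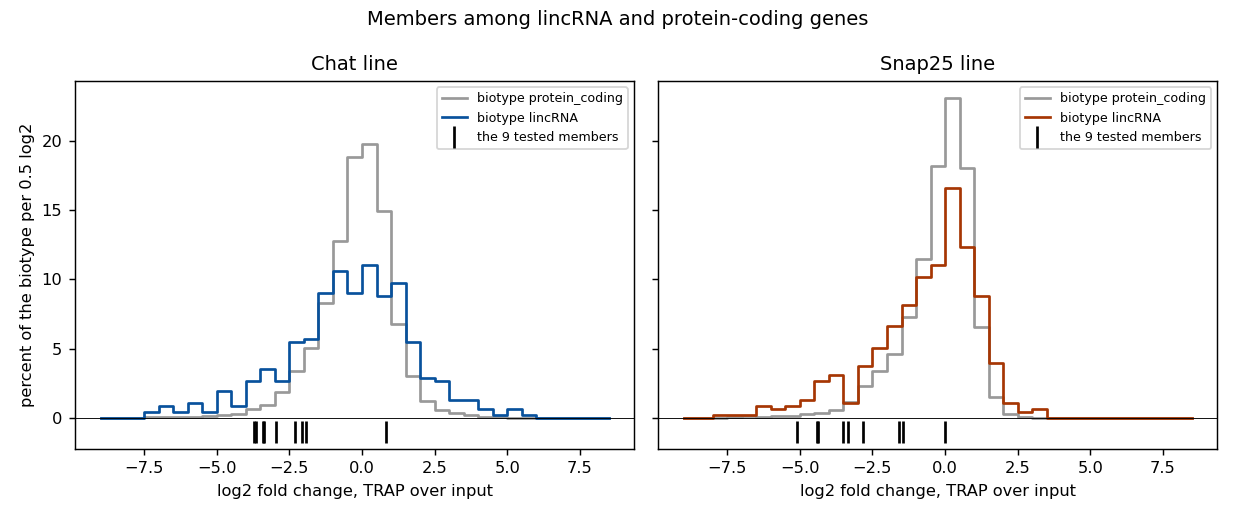
Share of tested lincRNA genes and of tested protein-coding genes (percent per 0.5 log2) by log2 fold change from input to pulldown, in the Chat line (left) and the Snap25 line (right), with ticks for the 9 tested members. The lincRNA genes spread more widely than protein-coding genes around a median of -0.28 and -0.35, and 8 members lie in the left part.

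Of 16 other nuclear and regulatory long noncoding RNAs tested, 3 fell and 2 rose in the Chat line, shares near those of all tested genes (14.3% and 12.6%). In the Snap25 line 5 fell, beside 12.7% of all tested genes, and the medians were -0.69 and -0.78. Oip5os1, a cytoplasmic and nuclear RNA also called Cyrano, fell in both, from 327 ± 71.2 to 191 ± 5.11 CPM and from 353 ± 94.1 to 172 ± 37.3 CPM (SD, n = 3). Firre, which anchors the X chromosome, fell in both, from 1.74 ± 0.205 to 0.158 ± 0.191 CPM and from 2.21 ± 1.92 to 0.0431 ± 0.0383 CPM, levels in the pulldowns that were worth at most a few reads. Mirg, transcribed beyond Meg3 in the same imprinted region, fell by 2.98 ± 0.78 on the log2 scale in the Snap25 line (SE, edgeR adjusted p = 0.0127) and had -1.16 ± 0.72 in the Chat line (adjusted p = 0.249). Ftx, of the X-inactivation centre, fell by 2.55 ± 0.74 in the Snap25 line. Among imprinted RNAs, 2 rose in the Chat line: Airn, the antisense RNA of Igf2r, from 4.81 ± 1.12 to 10.7 ± 2.54 CPM, and H19 from 40.8 ± 24.5 to 137 ± 124 CPM, where the groups overlapped.

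Of 16 other snoRNA hosts 1 rose and 1 fell in the Chat line (6.25% each, beside 12.6% and 14.3% of all tested genes) and 3 fell in the Snap25 line (18.8%, beside 12.7%), with medians of 0.16 and -0.04. Snhg6 rose by 2.41 ± 0.42 on the log2 scale in the Chat line (SE, edgeR adjusted p = 0.000734) and had 0.79 ± 0.40 in the Snap25 line (adjusted p = 0.169). Snhg14, the imprinted antisense RNA that reaches Ube3a, fell in both, from 37.8 ± 10.01 to 12.9 ± 5.32 CPM and from 38.6 ± 9.54 to 17.1 ± 4.56 CPM (SD, n = 3). Snhg18 fell by 2.91 ± 0.54 on the log2 scale in the Snap25 line, and Snhg5 fell by 1.91 ± 0.59. Snhg11 thus lay below the lists' medians in both lines and Gas5 at or above them.

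Of 8 tested microRNA hosts beside the members, 2 fell and 1 rose in the Chat line, beside 14.3% and 12.6% of all tested genes, and 1 fell in the Snap25 line, beside 12.7%. Mir124-2hg, another host of miR-124, fell from 25.5 ± 0.785 to 9.93 ± 2.19 CPM in the Chat line (-1.36 ± 0.41 on the log2 scale, SE; adjusted p = 0.0198 by edgeR), while Mir9-3hg rose from 8.39 ± 0.904 to 18.7 ± 4.15 CPM. Of 17 messenger RNAs of speckle and paraspeckle proteins 2 fell in the Chat line, Acin1 and Pspc1 (11.8%, beside 14.3%), and 1 in the Snap25 line, Pnn (5.88%, beside 12.7%). Their medians were both -0.26.

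Of 10 tested protein genes beside or around the members, 3 fell and 1 rose in the Chat line, beside 14.3% and 12.6% of all tested genes, and 3 fell in the Snap25 line, beside 12.7%. The gene that rose was Kcnk9, a potassium channel, from 26.2 to 66.1 CPM (1.33 ± 0.33 on the log2 scale, SE; adjusted p = 0.00692 by edgeR). Next to Malat1 and Neat1, Frmd8 fell in both, from 70.8 to 15.5 CPM and from 54.9 to 11.2 CPM (-2.19 ± 0.32 and -2.30 ± 0.32 on the log2 scale, SE; adjusted p = 0.000206 and 0.000272 by edgeR), and Ltbp3 (log2 fold changes -0.27 and -0.15) did not pass. Cdkn1c, a growth inhibitor in the imprinted domain of Kcnq1ot1, fell from 36.3 to 10.6 CPM and from 37.0 to 6.62 CPM. Beside Rmst, Nedd1 fell in the Chat line. Beside Gas5, Zbtb37 fell in the Snap25 line, and Ralgapb beside Snhg11 passed in neither.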

How the data were processed

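RNA sequencing reads of 12 spinal cord libraries, 3 in each of PreIP_Chat, TRAP_Chat, PreIP_Snap25 and TRAP_Snap25 as named in the titles, had been counted per Ensembl gene. The deposited values are raw counts; the submitters' processing notes name STAR and HTSeq as the tools the authors used. Strandedness, build, annotation and the tools' versions remain unstated, being not given in the sources used here. The table had 41736 lines; 824 exact repeats were dropped, leaving 40912 gene IDs.

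Counts were fitted with edgeR 4.0.16 (R 4.3.3): filterByExpr by group, TMM, 1 mean per group over all 12 libraries, glmQLFit and glmQLFTest, two-sided, Benjamini-Hochberg over 15905 genes, threshold 0.05. SE is the log2 fold change over the root of F. CPM are TMM-scaled. Alternatives were RLE, total counts with and without mitochondrial ribosomal RNA, DESeq2 1.42.0, limma voom 3.58.1, other filters and only the groups compared. Others were a replicate block and each library left out. The block joined same-numbered libraries of a line. For TRAP_Chat against TRAP_Snap25 and for the inputs it went by replicate number, which does not follow the suffixes across the lines. Leaving out PreIP_Snap25 replicates 2 and 3 together, or TRAP_Chat replicate 1 with TRAP_Snap25 replicate 3, was chosen after seeing the data. The pipeline was tested on simulated data. Intervals (Clopper-Pearson) cover counting error only.

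All members are named; from each related list, up to 3 called genes per direction by adjusted p, and neighbours of members, some of which are not reported here; for likeness, the best 3 genes for Malat1, Meg3 and Gas5 (log2 CPM, prior count 2). The members and lists were chosen with earlier results of these data known. Of 170 list genes 164 were found, 9 of them by another name.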

Additional observations from a re-analysis of the deposited data

Results flagged for a closer look

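Tunar, a noncoding RNA of neural differentiation, moved in opposite directions in the lines. It stood at 75.9 ± 4.61 CPM in PreIP_Chat and 44.9 ± 16.3 in TRAP_Chat, and at 67.4 ± 2.41 CPM in PreIP_Snap25 and 103 ± 9.56 in TRAP_Snap25 (SD, n = 3), with no overlap of libraries in either line. The difference between the lines in the log2 change was -1.37 ± 0.35 (SE, edgeR adjusted p = 0.0705), which did not pass. In the Chat line it fell (edgeR adjusted p = 0.0321), and in the Snap25 line the log2 fold change of 0.62 ± 0.25 did not pass (adjusted p = 0.0822).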

How the results depend on the processing

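In the Chat line 8 members fell under every other scaling, tool, filter and design run, and 7 to 8 with libraries left out. The share of all tested genes that fell ran from 1580 of 15905 (total counts) to 2840 of 15905 (limma voom). With libraries left out it ran from 1546 of 16475 to 2808 of 16362. In the Snap25 line 6 to 8 members fell under other settings and 5 to 8 with libraries left out. There the share ran from 1390 of 15905 (total counts) to 2431 of 15905 (DESeq2). With libraries left out it ran from 1298 of 16455 to 2759 of 16362, apart from the fit with 1 input library. The count of members higher in TRAP_Chat than in PreIP_Chat went from 0 to 1, Gas5, with total counts and no TMM (log2 fold change 1.10, adjusted p = 0.029), with no filter (0.81, 0.0205) and with the replicate block (0.77, 0.0315), and ranged from 0 to 1 with libraries left out. For the difference between the lines the count higher went from 0 to 1, Snhg11, with no filter. The cause was not tested. Of 745 values of single members under an alternative, 691 kept direction and side of the threshold, 16 lost the call, 10 gained it and 28 changed sign, none of these 28 past the threshold. Gas5 in the Snap25 line had 0.42 with total counts, 0.0114 in a fit of its own groups, 0.11 and 0.02 without PreIP_Snap25 replicate 2 or 3, 0.21 without TRAP_Snap25 replicate 3, and 0.33 and 0.21 with the paired omissions. In TRAP_Chat against TRAP_Snap25, Malat1 had -0.31, -0.44 and -1.14 without TRAP_Snap25 replicate 1 or 2 or TRAP_Chat replicate 1, Neat1 -0.81 without the last, Miat -0.23, -0.46 and -0.17 without TRAP_Snap25 replicate 1 or 2 or TRAP_Chat replicate 3, and Gas5 -0.10 and -0.32 without TRAP_Snap25 replicate 3 or TRAP_Chat replicate 1. At the other end, Malat1 had 1.61 and Miat 1.59 without TRAP_Snap25 replicate 3, and Gas5 0.40 without TRAP_Chat replicate 3. In the difference between the lines, Malat1 had -0.22 and Neat1 -0.63 without TRAP_Chat replicate 1, and Neat1 -0.0049 and Miat -0.51 without PreIP_Snap25 replicate 2, while without TRAP_Snap25 replicate 3 they had 2.53, 1.28 and 2.29 (Malat1, Neat1, Miat). Between the inputs, Neat1 had 0.0337 and Miat 0.0132 with limma voom, and without PreIP_Snap25 replicate 2 the values were 0.39 for Neat1, 0.18 for Meg3, 0.57 for Miat, 0.37 for both Kcnq1ot1 and Snhg11 and 0.15 for Mir124a-1hg. Without replicate 3 they were -0.56, -1.29, -1.21, -0.63, -1.34 and -0.83 for Neat1, Meg3, Miat, Kcnq1ot1, Snhg11 and Mir124a-1hg. Total counts moved the median log2 fold change of all genes to 0.17 and 0.38 in the Chat and Snap25 lines, with 2643 higher and 1580 lower and 3289 and 1390. Without mitochondrial ribosomal RNA it was -0.20 in both, with 1327 and 2443 and 681 and 2297. Correlations of same-numbered inputs and pulldowns were 0.06, 0.10 and 0.13 in the Chat line and -0.04, 0.17 and 0.15 in the Snap25 line. Those of different numbers ran from -0.10 to -0.02 in the Chat line, all under the same-numbered ones, and from -0.30 to 0.17 in the Snap25 line. The main values have no block. The descriptions of same-numbered libraries share a suffix, so they may be pairs, and some calls depend on this choice. With the replicate block 8 and 7 members fell, where 2445 and 2119 of 15905 tested genes fell. The call of Meg3 in the Snap25 line was then lost (edgeR adjusted p = 0.0987) and Kcnq1ot1 there passed (0.0489). Low read numbers limit Meg3, and Mir124a-1hg and Rmst in the pulldowns.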

Other observations

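The genes whose levels differed most between PreIP_Snap25 replicates 2 and 3, chosen after their values were seen and among named genes whose mean in these inputs reached 5 CPM, were not only noncoding. After Miat and Snhg11, those with the highest ratio included the protein genes Ddx26b (283, 1024 and 163 reads in replicates 1, 2 and 3), Zcchc7 (651, 1695 and 305), Ankrd16 (181, 537 and 97) and Pnisr (865, 1723 and 348), a nuclear serine and arginine-rich protein. Nktr (1025, 2258 and 480) and Wsb1 (232, 525 and 106) followed the same order, as did Mirg (117, 146 and 24). At the other end were, among others, Rn7s1, a signal recognition particle RNA (154, 93 and 598), Rmrp, the RNA of an RNA-processing enzyme (541, 151 and 803), and Prx, a myelin gene of peripheral nerve (766, 86 and 380).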
